A study of Mus musculus with 15 samples.

Results

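Serotonin (5-HT) acts on the hippocampus through a family of receptors, and 10 receptor genes were followed here through RNA-seq libraries of the mouse dentate gyrus. The genes are *Htr1a*, *Htr1f*, *Htr2a*, *Htr2c*, *Htr3a*, *Htr4*, *Htr5a*, *Htr5b*, *Htr6* and *Htr7*. They were taken by symbol from count tables of 32657 features, which list all 10 in every library. The 15 libraries form 6 groups: vDG (ventral dentate gyrus) IP, vDG input and dDG (dorsal dentate gyrus) input, each with 3 WT and 2 cKO pools of adult mice 8 to 12 weeks old, bred on C57BL/6J. The IP comes from translating ribosome affinity purification (TRAP), in which an antibody to EGFP pulls down ribosomes that carry the EGFP-L10a fusion protein, so that the IP holds RNA of the tagged cells and the input holds RNA of all cells in the dissected tissue. WT mice were Drd3-Cre KI198::Rosa26-fsTRAP and cKO (conditional knockout) mice were Drd3-Cre KI198::Rosa26-fsTRAP::Htr4-Floxed. Both genotypes therefore carried the Cre driver and the EGFP-L10a transgene, and they differed in the floxed *Htr4* allele.

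Several features of the model bear on the values. KI198 is a BAC Cre driver that labels granule cells and mossy cells along the dentate gyrus together with part of the pyramidal cells of the CA fields, and interneurons and glia are present in the inputs. Each library is a pool: the sample records give 3 mice for an IP and 2 for an input, and the study's methods give 1 male and 1 female. For the inputs the records list cortex as source, although titles and region labels say dentate gyrus. The floxed allele, made to delete functional 5-HT4 receptor, loses exon 5 of *Htr4* after Cre recombination and still gives a transcript. The deposited *Htr4* counts cover the whole gene, so they cannot show whether exon 5 was lost, and the libraries are called WT and cKO as they are labelled.

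Most 5-HT receptors are G protein coupled. Receptors of the 5-HT1 and 5-HT5 classes couple to Gi/o proteins, which lower cAMP and open potassium channels. Receptors of the 5-HT2 class couple to Gq and phospholipase C, those of the 5-HT4, 5-HT6 and 5-HT7 classes couple to Gs and raise cAMP, and the 5-HT3 receptor is a ligand-gated cation channel. In the dentate gyrus 5-HT arrives through axons of the raphe nuclei, and the receptors sit on granule cells, mossy cells and interneurons in different mixtures.

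Total counts on genes ranged from 19039295 to 30451430 per library. The dissection was checked against marker genes. *Trhr*, a vDG marker, lay at 14.5 to 31.3 CPM (counts scaled to library size, with TMM factors) in the vDG libraries and at 0.119 to 0.719 CPM in the dDG libraries. *Lct*, a dDG marker, lay at 29.9 to 87.8 CPM in vDG and at 128 to 182 CPM in dDG. *Tyro3*, a marker of the CA fields, was higher in vDG than in dDG, with log2 fold changes of 1.38 in the WT inputs (FDR = 0.000275) and 1.24 in the cKO inputs (FDR = 0.00383). *Prox1*, a transcription factor of granule cells, was at 621 to 1044 CPM in all 15 libraries, the inputs labelled cortex included. The summed level of 8 choroid plexus markers was at 41.4, 106 and 164 CPM in the 3 WT dDG inputs and at 21.4 to 38.9 CPM in the other 12 libraries.

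Of the 14 5-HT receptor genes in the tables, 4 were hardly counted: *Htr1b*, *Htr1d*, *Htr2b* and *Htr3b* had at most 10, 10, 22 and 2 counts in any library. *Htr1b* and *Htr2b* also share exonic bases with a gene on the opposite strand, and the 10 genes followed here share none with another annotated gene. Levels of different genes were compared as RPKM, which divides CPM by the length of the merged exons in kilobases. In vDG the receptors formed a steep order with *Htr1a* on top. *Htr1a*, the 5-HT1A receptor, stood at 13.2 ± 2.42 RPKM in the WT vDG IP and 13.8 ± 2.10 RPKM in the WT vDG input (SD, n = 3), above each other receptor in all 10 vDG libraries.

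*Htr5a* came next in WT vDG, with 3.90 ± 0.832 RPKM in the IP and 3.35 ± 0.446 RPKM in the input, and *Htr4* followed with 3.06 ± 0.259 and 3.17 ± 0.535 RPKM. These neighbours did not overlap in the WT IPs and overlapped in the WT inputs, where *Htr3a* at 3.12 ± 0.602 RPKM overlapped with them too. In both vDG groups of cKO, *Htr4* held the second place, at 5.81 ± 0.478 RPKM in the IP and 5.75 ± 0.279 RPKM in the input, without overlap with *Htr5a* (SD, n = 2). In dDG the order was headed by *Htr4*, with 5.99 ± 0.906 RPKM in WT and 10.1 ± 0.658 RPKM in cKO. *Htr1a* followed at 4.45 ± 1.80 RPKM in WT, where the 2 genes overlapped, and at 3.91 ± 0.150 RPKM in cKO, where they did not. *Htr2c* was the lowest or next to lowest of the 10 genes in every group, at most 0.389 ± 0.137 RPKM in the WT vDG input, and *Htr5b* never exceeded 25 counts. The order of group means did not depend on whether libraries were scaled by TMM, by DESeq2's size factors or by their totals alone.

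**Figure D1:**
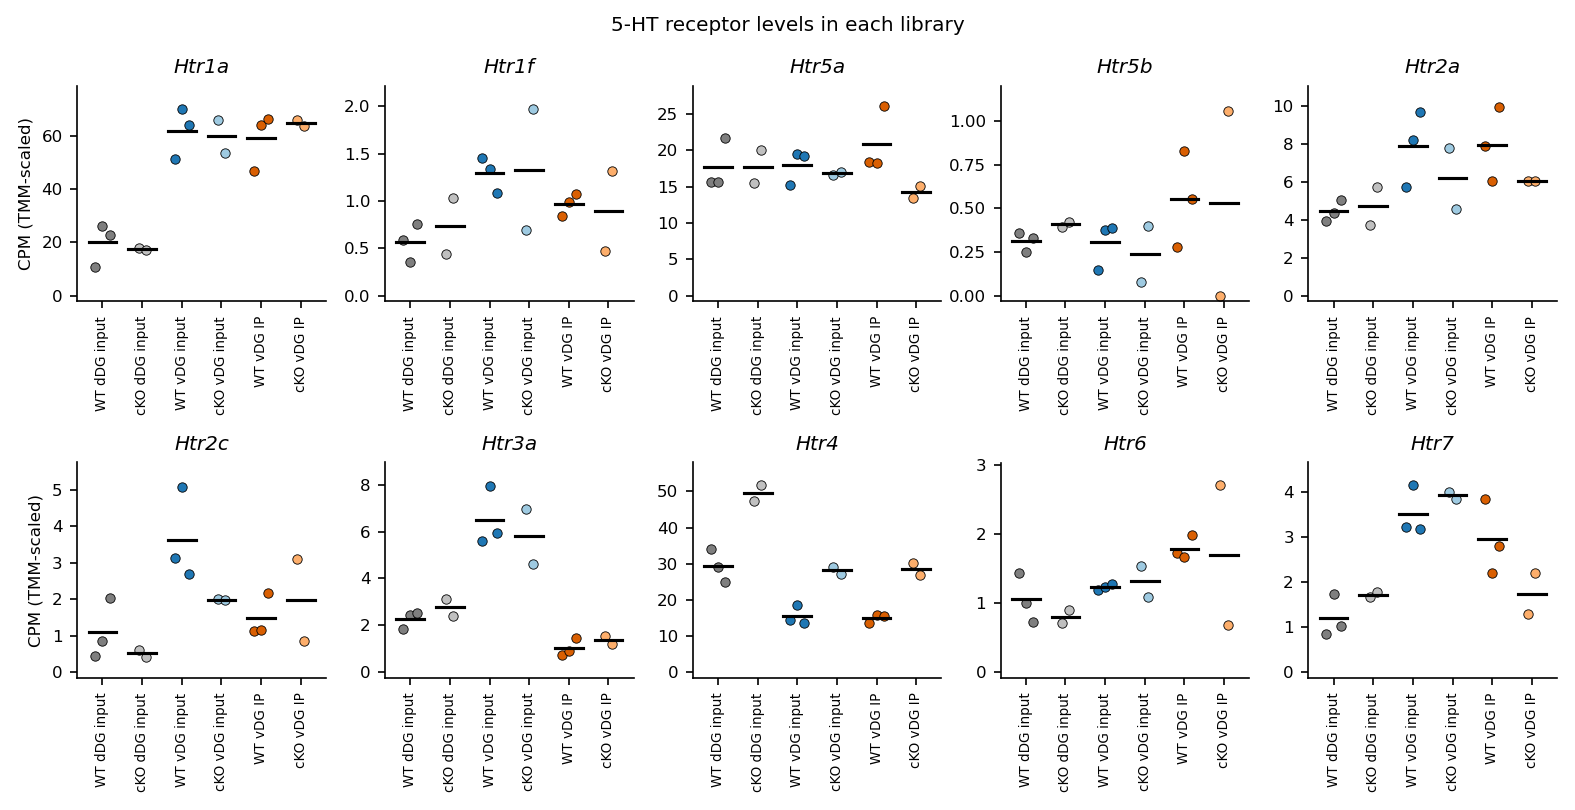
Each panel plots 1 receptor, with the 6 groups on the x axis and CPM on the y axis; the points are libraries and bars are group means. *Htr1a* and *Htr4* move in opposite directions from dDG to vDG, *Htr3a* falls from vDG input to IP, and *Htr4* is higher in the cKO groups.

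The first comparison asked how the receptors differ along the dorsoventral axis, between vDG and dDG inputs of the same genotype. In WT 5 receptors were higher in the ventral inputs and *Htr4* was lower. edgeR's quasi-likelihood test called 6 of the 9 receptors that passed its count filter in WT (*Htr1a*, *Htr2a*, *Htr2c*, *Htr3a* and *Htr7* higher, *Htr4* lower), against 15.3% of all genes tested. In cKO it called 5 of 10 (*Htr1a*, *Htr2c*, *Htr3a* and *Htr7* higher, *Htr4* lower), against 17.0% of all genes tested. The median log2 fold change of the tested receptors was 1.18 in WT and 0.80 in cKO, and over all genes tested it was -0.0076 and 0.0084. Ventral and dorsal libraries did not overlap for 7 of 9 receptors in WT, against 31.4% of all genes tested, and for 6 of 10 in cKO, against 58.2%. In bulk tissue, fewer cells of a type and less RNA per cell cannot be told apart.

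Among the Gi/o receptors, *Htr1a* (chromosome 13, 105443639 to 105448122, plus strand of GRCm38, a gene of 1 exon) encodes the 5-HT1A receptor, which hyperpolarizes dentate granule cells. It had 51.4, 69.8 and 64.0 CPM in the WT vDG inputs and 10.8, 26.2 and 22.8 CPM in the WT dDG inputs. The cKO inputs gave 65.9 and 53.6 CPM in vDG and 18.0 and 17.0 CPM in dDG. Every ventral input lay above every dorsal input, at least 51.4 against at most 26.2 CPM. From dDG to vDG the log2 fold change was 1.65 for WT (SE 0.22, FDR = 6.29e-05), a 3.14-fold difference. For cKO it was 1.78 (SE 0.14, FDR = 1.57e-08), a 3.43-fold difference. It was called under every alternative tried.

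*Htr1f* (chromosome 16, 64924729 to 65105854, minus strand) encodes the 5-HT1F receptor. It was rare, with 28 to 39 counts in the WT vDG inputs and 7 to 23 in the WT dDG inputs. The 2 groups of WT did not overlap, at 1.09 to 1.45 and 0.349 to 0.760 CPM, and the log2 fold change of 1.18 (SE 0.44, FDR = 0.0820) did not pass the threshold. With both genotypes in a single fit it was 1.063 and passed (FDR = 0.0417). The cKO inputs overlapped, with 18 and 54 counts in vDG and 11 and 22 in dDG.

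*Htr5a* (chromosome 5, 27842149 to 27855088, plus strand), which encodes the 5-HT5A receptor, was level along the axis. It had 15.3, 19.5 and 19.3 CPM in the WT vDG inputs and 15.6, 15.7 and 21.7 CPM in the WT dDG inputs. The log2 fold change was 0.05 in WT, with a nominal 95% interval from -0.27 to 0.36. In cKO it was -0.07, with an interval from -0.39 to 0.25. Differences as large as those of *Htr1a* lie outside both intervals. *Htr5b* (chromosome 1, 121509842 to 121528465, minus strand), a related receptor gene that is not functional in humans, had 4 to 11 counts in the WT vDG inputs and 5 to 10 in the WT dDG inputs. It failed the filter in WT, and a difference was not detectable at this depth.

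Both Gq receptors had higher ventral means. *Htr2a* (chromosome 14, 74640840 to 74709494, plus strand), the 5-HT2A receptor and a target of psychedelic drugs, had 5.73, 8.21 and 9.71 CPM in the WT vDG inputs and 3.91, 4.34 and 5.06 CPM in the WT dDG inputs. The groups did not overlap, and the log2 fold change was 0.84 (SE 0.22, FDR = 0.0122). Without the second or the third WT vDG input it was 0.81 (FDR = 0.0546) or 0.67 (FDR = 0.0841). In cKO the inputs overlapped, at 7.81 and 4.56 CPM in vDG and 3.72 and 5.74 CPM in dDG, with a log2 fold change of 0.40 (SE 0.27, FDR = 0.344). Without the second cKO vDG input it was 0.73 and passed (FDR = 0.0245), and without the first it was -0.042 (FDR = 0.957).

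*Htr2c* (X chromosome, 146962513 to 147197277, plus strand) encodes the 5-HT2C receptor, which choroid plexus cells and some neurons express. It had 3.12, 5.08 and 2.68 CPM in the WT vDG inputs and 0.449, 0.848 and 2.02 CPM in the WT dDG inputs. In cKO it had 1.99 and 1.97 CPM in vDG and 0.593 and 0.424 CPM in dDG. Ventral and dorsal inputs did not overlap in either genotype. The ventral excess was 1.69 on the log2 scale in WT (SE 0.42, FDR = 0.0100), and in cKO it was 1.95 (SE 0.46, FDR = 0.00541). With single libraries left out it ran from 1.31 to 2.51 in WT and from 1.74 to 2.21 in cKO. The call was lost without the second WT vDG input (1.37, FDR = 0.103) and without the second cKO dDG input (1.74, FDR = 0.0541) or with all 15 libraries in a single fit (1.94 in cKO, FDR = 0.0721). Choroid plexus markers moved the other way in WT: 4 of 6 tested fell from dDG to vDG, among them *Ttr*, the transthyretin of choroid epithelium, with a log2 fold change of -4.12. In cKO 1 of 4 tested rose and 1 fell, and *Ttr* was the one that rose, with 1.46. Of all genes tested, 15.3% were called in WT and 17.0% in cKO. The part of choroid plexus markers in the difference of *Htr2c* was not tested.

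*Htr3a* (chromosome 9, 48899213 to 48911099, minus strand) encodes the channel subunit 5-HT3A, which in the forebrain marks a class of interneurons. It had 5.62, 7.93 and 5.94 CPM in the WT vDG inputs and 1.84, 2.44 and 2.54 CPM in the WT dDG inputs. In cKO it had 6.97 and 4.63 CPM in vDG and 3.12 and 2.40 CPM in dDG. No ventral input fell within the dorsal range. In WT vDG exceeded dDG by 1.53 on the log2 scale (SE 0.23, FDR = 0.000192), a 2.89-fold difference. For cKO the value was 1.07 (SE 0.27, FDR = 0.00838), or 2.10-fold. In cKO the call was lost without the first vDG input (0.74, FDR = 0.0978) and without the second dDG input (0.90, FDR = 0.0636).

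Summed CPM of 8 interneuron markers moved in the same direction, from 295 to 360 in the WT dDG inputs to 451 to 524 in the WT vDG inputs, and from 322 to 347 to 384 to 393 in cKO. Of these markers 4 rose in WT and 3 in cKO and none fell, where 15.3% and 17.0% of all genes were called in either direction. *Sst*, the neuropeptide of hilar interneurons, had the largest of these changes, 1.86 in WT and 1.46 in cKO on the log2 scale, and *Dlx1*, a transcription factor of interneurons, followed with 1.16 and 1.003. Their part in the rise of *Htr3a* was not tested.

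The Gs receptors split. *Htr4* (chromosome 18, 62324204 to 62496577, plus strand) encodes the 5-HT4 receptor, which depolarizes granule cells. It had 14.4, 18.5 and 13.7 CPM in the WT vDG inputs and 33.9, 29.2 and 25.05 CPM in the WT dDG inputs. The cKO inputs had 29.2 and 27.3 CPM in vDG and 47.2 and 51.8 CPM in dDG. *Htr4* was thus lower in every ventral input than in any dorsal input of its genotype. From dDG to vDG it fell by 0.89 on the log2 scale in WT (SE 0.16, FDR = 0.000660), and by 0.80 (SE 0.13, FDR = 0.000123) in cKO, so that dDG exceeded vDG 1.86-fold in WT and 1.74-fold in cKO. It was called under every alternative tried.

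*Htr7* (chromosome 19, 35958734 to 36057507, minus strand), the 5-HT7 receptor, went the other way from *Htr4*. *Htr7* had 3.24, 4.16 and 3.18 CPM in the WT vDG inputs and 0.854, 1.75 and 1.02 CPM in the WT dDG inputs. The cKO inputs had 4.02 and 3.86 CPM in vDG and 1.66 and 1.79 CPM in dDG, and no ventral value overlapped a dorsal one. On the log2 scale the rise was 1.58 in WT (SE 0.32, FDR = 0.00227), a 2.99-fold difference, and that of cKO was 1.201 (SE 0.30, FDR = 0.00781). Both were called under every alternative tried. *Htr6* (chromosome 4, 139061108 to 139075570, minus strand), the 5-HT6 receptor, stayed at 18 to 40 counts in all inputs. The groups overlapped in WT and not in cKO. Its log2 fold changes of 0.26 in WT and 0.72 in cKO had intervals from -0.53 to 1.05 and from -0.20 to 1.63, so that a difference was not detectable at this depth.

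**Figure D2:**
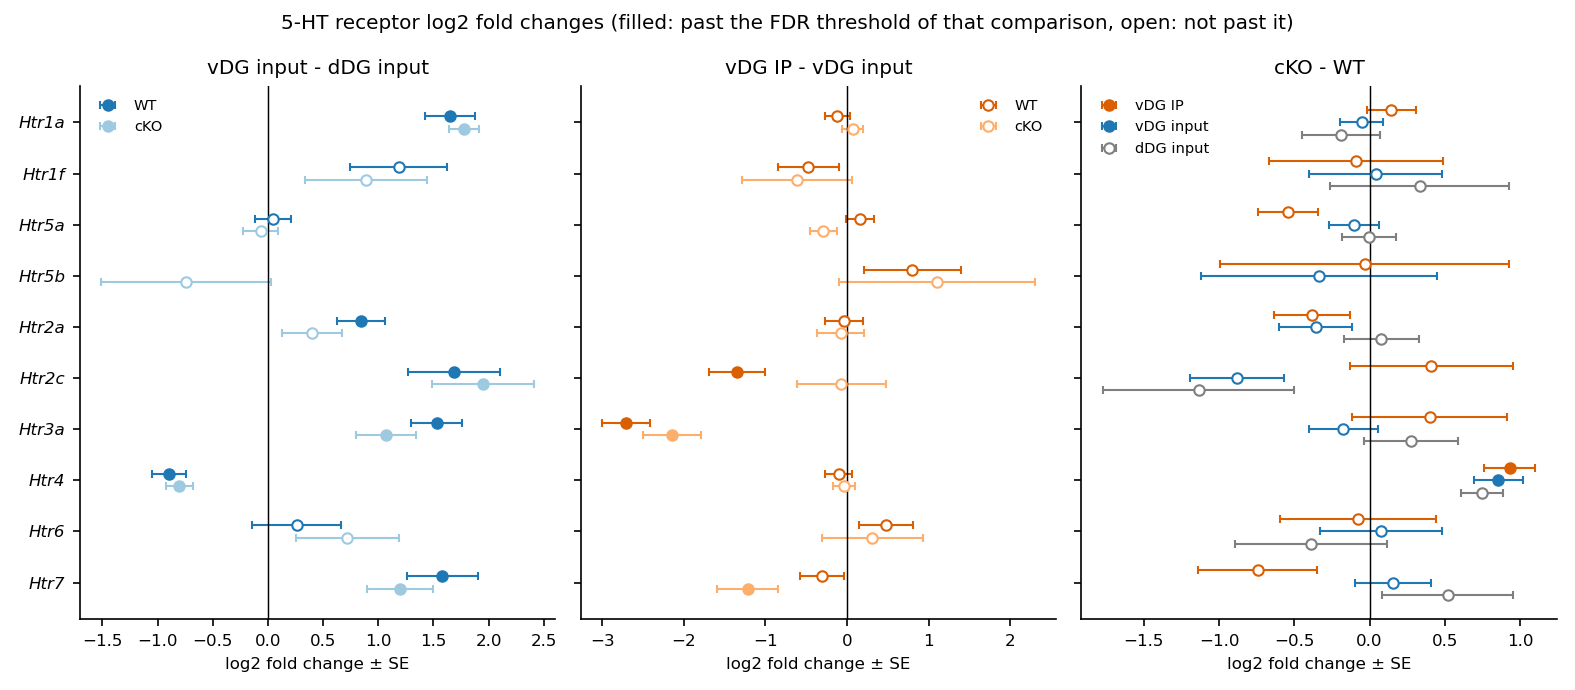
Log2 fold changes (x axis, bars are SE) of the 10 receptors (y axis) from dDG to vDG input, from vDG input to IP and from WT to cKO; filled points passed the FDR threshold of that comparison. *Htr1a*, *Htr2c*, *Htr3a* and *Htr7* lie right of 0 and *Htr4* left of 0 in both genotypes of the first panel, and *Htr4* is the only filled point in the third.

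These shifts changed the make-up of the receptor transcripts within a library, a measure that does not depend on how libraries are scaled to each other. Gi/o receptors made up 63.7 to 66.9% of the summed receptor RPKM in the WT vDG inputs and 37.8 to 54.4% in the WT dDG inputs. Gs receptors made up 15.5 to 18.8% and 32.4 to 51.4%, in the opposite direction and without overlap. In cKO the Gi/o share was 58.7 to 60.7% in vDG and 36.5 to 37.3% in dDG. The Gs share was 25.3 to 27.0% and 52.3 to 52.5% there. These are shares of transcripts, and in cKO the *Htr4* counts include transcripts of the floxed allele, so they do not measure working receptor. The ratio of *Htr1a* to *Htr4*, both as RPKM, was 3.92 to 5.11 in the WT vDG inputs and 0.349 to 0.996 in the WT dDG inputs. In cKO it was 2.15 to 2.47 in vDG and 0.360 to 0.417 in dDG. *Htr4* RPKM exceeded *Htr1a* RPKM in all 5 dDG libraries and in none of the 10 vDG libraries. The *Htr1a* level of the first WT dDG input, 10.8 CPM, stood below the other 2 of its group and sets the low end of these ranges. Gq receptors stayed between 3.65 and 7.35% in all 15 libraries.

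**Figure D3:**
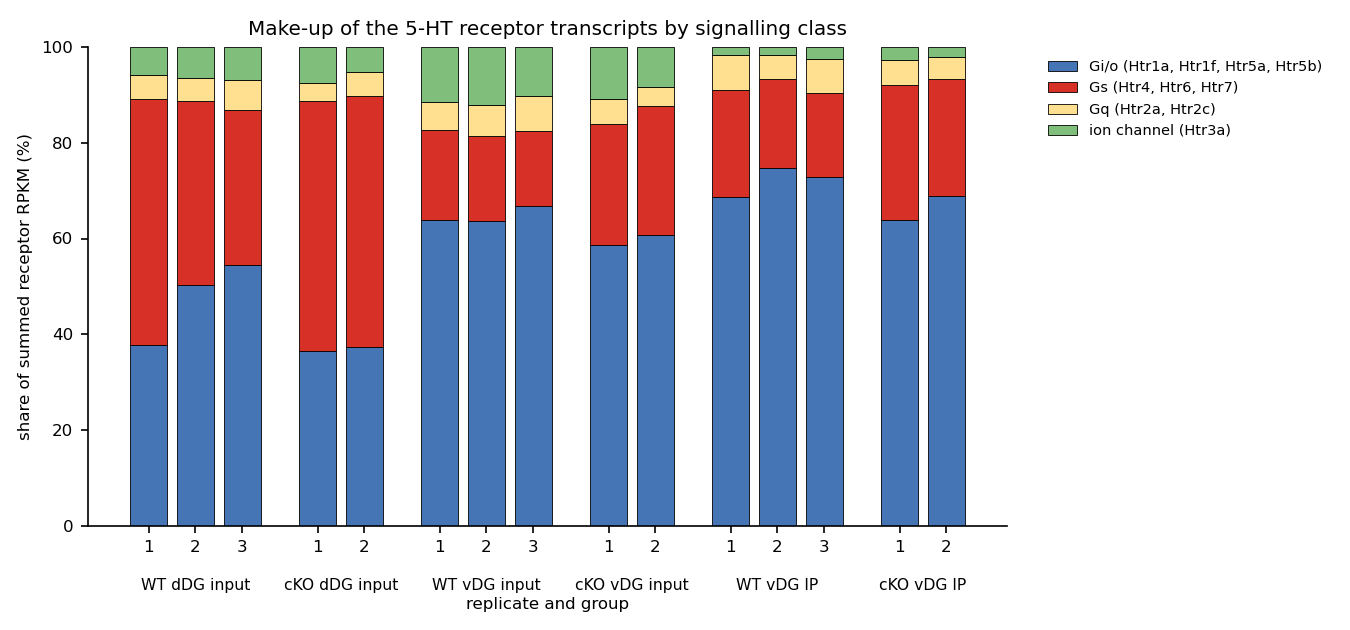
Stacked bars give, for each of the 15 libraries, the share of the summed receptor RPKM (y axis, percent) held by each signalling class. The Gs share is 32.4 to 52.5% in the 5 dDG libraries and 15.5 to 28.3% in the 10 vDG libraries, and the ion channel share is at most 2.68% in the IPs.

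Genes that act with the receptors were read against the same share of all genes called, 15.3% in WT and 17.0% in cKO. Of 9 G protein alpha subunits tested, 4 rose from dDG to vDG in WT (*Gnai1*, *Gnao1*, *Gnas* and *Gnaz*), and 4 rose and 1 fell in cKO. *Gnai1* and *Gnao1*, which encode Gi and Go subunits, had log2 fold changes of 0.74 and 0.60 in WT, and *Gnaz*, which encodes the related Gz subunit, had 0.57 in WT and 0.59 in cKO. *Gnas*, which encodes the Gs subunit, had 0.52 in WT (FDR = 0.0107) and 0.21 in cKO (FDR = 0.185). In cKO *Gnal*, which encodes the Gs-like subunit Golf, was the one that fell, with -0.31. Of 21 effectors and partners 3 rose and 4 fell in WT, and 2 rose and 6 fell in cKO. *Adcy1*, a calcium-stimulated adenylyl cyclase, showed the largest change, -1.50 in WT and -1.59 in cKO. *Plcb4*, a phospholipase C downstream of Gq, rose in WT by 0.90.

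Of 7 tested genes of 5-HT synthesis, transport and breakdown, *Maob*, the monoamine oxidase B, rose and *Slc29a4*, a low-affinity monoamine transporter, fell in WT, with log2 fold changes of 0.46 and -0.61, where 15.3% of all genes were called. In cKO, where 17.0% of all genes were called, they had -0.28 (FDR = 0.319) and -0.13 (FDR = 0.564), and the lowest FDR of the 7 was that of *Tph1*, a tryptophan hydroxylase, at 0.0855 with a log2 fold change of 2.08. *Slc6a4*, the serotonin transporter, and *Tph2*, the neuronal tryptophan hydroxylase, had at most 8 and 46 counts in any library.

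Other cell type markers were counted beside the same 15.3% of all genes in WT and 17.0% in cKO. Of 6 mossy cell markers 4 rose from dDG to vDG in each genotype, led by *Calb2* (calretinin, a marker of ventral mossy cells) with log2 fold changes of 5.01 and 5.22. Their summed CPM went from 52.3 to 60.7 in the WT dDG inputs to 194 to 230 in the WT vDG inputs, and from 64.4 to 65.8 to 183 to 218 in cKO. Of 6 granule cell markers 4 fell in WT and 5 in cKO, among them *Dsp* (desmoplakin), with -1.58 and -2.23. Of 8 markers of CA pyramidal cells 3 rose and 2 fell in WT, and 2 rose and 1 fell in cKO. Their summed CPM was 62.9 to 68.7 in the WT dDG inputs and 90.9 to 94.9 in the WT vDG inputs, and 67.9 to 76.9 and 92.3 to 94.2 in cKO, without overlap. Their part in the differences of the receptors was not tested.

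The next comparison set the vDG IP against the vDG input, to see how receptor transcripts on ribosomes of KI198 cells compare with those of the tissue. The paper proposes that mature granule cells, which KI198 labels, gave most of the input transcripts. A transcript confined to KI198 cells can therefore differ little between IP and input. Input RNA was taken from the homogenate before the IP, so an IP and an input can hold the same tissue, and the fits took them as separate libraries. The dominant receptors *Htr1a*, *Htr5a* and *Htr4* were at similar levels in both fractions. *Htr3a* was the one receptor depleted from the IP in both genotypes. edgeR called 2 of 10 receptors in WT (*Htr3a* and *Htr2c*), against 23.9% of all genes tested, and 2 of 10 in cKO (*Htr3a* and *Htr7*), against 27.5%. All of these calls were depletions, with a fold change under 0.5, against 11.4% of all genes tested in WT and 10.7% in cKO. None of the 10 was enriched, against 7.72% in WT and 11.4% in cKO: at an unadjusted p under 0.05 edgeR gave 2 receptors in each genotype, the same ones and all lower, and DESeq2 called 0 higher. IP and input libraries did not overlap for 4 of 10 receptors in WT, against 41.4% of all genes tested, and for 3 of 10 in cKO, against 65.5%.

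*Htr3a* had 0.721, 0.908 and 1.46 CPM in the WT IPs, against 5.62 to 7.93 CPM in the WT inputs. In cKO it had 1.52 and 1.19 CPM in the IPs, against 4.63 and 6.97 CPM. Each IP lay well below each input. Its log2 fold change from input to IP was -2.71 for WT (SE 0.29, FDR = 1.22e-05), and for cKO -2.15 (SE 0.36, FDR = 0.00102), so that the input exceeded the IP 6.52-fold and 4.43-fold. Of 8 interneuron markers 7 fell in WT and 6 in cKO, and over all genes tested 2422 of 15011 were called lower in WT and 2377 of 15126 in cKO. The interneuron markers summed to 117 to 193 CPM in the IPs against 384 to 524 CPM in the vDG inputs. *Sst* fell by 3.24 and *Lhx6*, a transcription factor of interneurons, by 3.34 in WT on the log2 scale. All 5 astrocyte and all 5 microglia markers and 4 of 5 oligodendrocyte markers fell in both genotypes too, beside the same shares of all genes, and *Maob*, which astrocytes express, had log2 fold changes of -1.99 and -1.55. The part of each cell type in the fall of *Htr3a* was not tested.

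*Htr2c* was called in WT, where it had 1.12, 1.15 and 2.18 CPM in the IPs, below the 2.68 to 5.08 CPM of the inputs, and its log2 fold change was -1.35 (SE 0.34, FDR = 0.0111). This call was lost without the second WT IP (-1.19, FDR = 0.0536), without the second WT input (-1.03, FDR = 0.0802) and with both genotypes in a single fit (-0.83, FDR = 0.0612). In cKO the 2 IPs disagreed, with 65 and 20 counts or 3.09 and 0.847 CPM, on either side of the inputs at 1.99 and 1.97 CPM. The log2 fold change there was -0.07 (SE 0.54, FDR = 0.943). The genotype difference in this fold change was 1.30 on the log2 scale, with an unadjusted p of 0.0603 from edgeR. It takes in the 2 cKO IPs that disagreed, and the cKO fold change ran from -1.23 to 0.59 when single libraries were left out. Of 4 choroid plexus markers tested, 1 was called lower in each genotype, beside 23.9% (WT) and 27.5% (cKO) of all genes called. It was *Ttr*, with log2 fold changes of -2.94 in WT and -4.21 in cKO. Its part in the fall of *Htr2c* was not tested.

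*Htr7* had 3.85, 2.21 and 2.81 CPM in the WT IPs, overlapping the inputs, and a log2 fold change of -0.31 (SE 0.27, FDR = 0.445). In cKO the IPs had 1.28 and 2.20 CPM, both below the inputs at 4.02 and 3.86 CPM, and the log2 fold change was -1.22 (SE 0.38, FDR = 0.0299). That call was lost with DESeq2 (-1.199, FDR = 0.0634) and without the first cKO IP (-0.85, FDR = 0.0848), the first cKO input (-1.19, FDR = 0.176) or the second cKO input (-1.24, FDR = 0.164). With both genotypes in a single fit the change was -0.63 and passed (FDR = 0.0405).

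For the 3 most abundant receptors the fractions overlapped or differed little. *Htr1a* had 46.5, 64.1 and 66.4 CPM in the WT IPs and 65.8 and 63.7 CPM in the cKO IPs. Its log2 fold change from input to IP was -0.12 in WT, with a nominal 95% interval from -0.42 to 0.19. In cKO it was 0.07, with an interval from -0.18 to 0.31. *Htr4* had 13.6, 15.9 and 15.6 CPM in the WT IPs and 30.2 and 26.9 CPM in the cKO IPs. Its log2 fold changes were -0.10 (interval -0.42 to 0.22) and -0.04 (interval -0.31 to 0.24). *Htr5a* had 18.4, 18.3 and 26.1 CPM in the WT IPs and 13.5 and 15.0 CPM in the cKO IPs, the latter below both cKO inputs at 16.6 and 17.0 CPM, with log2 fold changes of 0.16 (interval -0.17 to 0.50) and -0.29 (interval -0.62 to 0.04).

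Markers of the cells that KI198 labels were split. Of 6 granule cell markers 2 rose in WT and 5 in cKO, where 1160 of 15011 and 1790 of 15126 genes were called higher, with *Dsp* at 0.71 and 1.33 and *C1ql2*, a synaptic protein of mossy fibres, at 0.59 and 0.65. Of 6 mossy cell markers none rose, 1 had a positive log2 fold change in each genotype, and the median was -0.51 in WT and -0.86 in cKO. *Calcrl*, the calcitonin receptor-like receptor, fell in WT with -1.34 and had -0.80 in cKO (FDR = 0.0553). The summed CPM of the mossy cell markers overlapped between IPs and inputs, at 196 to 249 and 194 to 230 in WT and at 198 to 206 and 183 to 218 in cKO.

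*Htr2a* had 7.89, 6.04 and 9.93 CPM in the WT IPs and 6.03 and 6.06 CPM in the cKO IPs, and its log2 fold changes of -0.04 and -0.08 did not pass. *Htr6* lay higher in each WT IP (1.66 to 1.98 CPM) than in any WT input (1.19 to 1.28 CPM), and its log2 fold change of 0.48 (SE 0.33, FDR = 0.323) did not pass. In the cKO IPs it had 57 and 16 counts. *Htr5b* had 0 and 25 counts in the 2 cKO IPs and 7 to 21 in the WT IPs. *Htr1f* lay lower in each WT IP (0.841 to 1.07 CPM) than in any WT input (1.09 to 1.45 CPM), and its log2 fold change of -0.47 (SE 0.37, FDR = 0.388) did not pass. It had 10 and 31 counts in the cKO IPs, and no difference of these rare receptors was detectable at this depth.

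The last comparison set cKO against WT within each kind of library, to see whether other receptors move when *Htr4* is floxed. By transcript counts the targeted gene itself was higher, not lower, in the libraries labelled cKO, and such counts do not measure working receptor. *Htr4* had 30.2 and 26.9 CPM in the cKO vDG IPs against 13.6 to 15.9 CPM in WT, 29.2 and 27.3 against 13.7 to 18.5 CPM in the vDG inputs, and 47.2 and 51.8 against 25.05 to 33.9 CPM in the dDG inputs. The genotypes did not overlap in any of the 3 settings, and the cKO vDG values lay within the range of the WT dDG values.

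In the vDG IP *Htr4* was the only receptor of 10 called, against 0.420% of all genes tested at the FDR of 0.1 used for this comparison, with a log2 fold change of 0.93 (SE 0.17, FDR = 0.0705). That call was lost without the second WT IP (FDR = 0.156), the first cKO IP (FDR = 0.908) or the second cKO IP (FDR = 0.195), with changes of 0.98, 0.84 and 1.012. In the vDG input it was again the only one of 10, against 2.44% of all genes tested, with 0.86 (SE 0.16, FDR = 0.00644). Without the first or the second cKO vDG input that was 0.82 (FDR = 0.162) or 0.89 (FDR = 0.0665). In the dDG input 0 of 9 receptors passed edgeR's threshold, against 0.0325% of all genes tested. *Htr4* had 0.75 there (SE 0.14, FDR = 0.0978), was the only receptor with an unadjusted p under 0.05, and was the only one called by DESeq2 (0.76, FDR = 0.00101). It also passed without a count filter (FDR = 6.02e-05) and without the first (0.87, FDR = 0.0140) or the third WT dDG input (0.65, FDR = 0.0433). It did not pass without the second WT dDG input (FDR = 0.267), without the first (FDR = 0.467) or the second cKO dDG input (FDR = 0.975), with all 15 libraries in a single fit (FDR = 0.163) or with the replicate block (0.64, FDR = 0.0593).

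No other receptor was called between genotypes in any of the 3 settings. *Htr5a* was lower in both cKO IPs (13.5 and 15.0 CPM) than in the WT IPs (18.3 to 26.1 CPM), with a log2 fold change of -0.54, an unadjusted p of 0.0176 from edgeR and an FDR of 0.334. In the vDG inputs its change was -0.10 and in the dDG inputs -0.0025, both with overlapping groups. *Htr2c* was lower in both cKO vDG inputs (1.99 and 1.97 CPM) than in the WT ones (2.68 to 5.08 CPM), with -0.88, an unadjusted p of 0.0096 from edgeR and an FDR of 0.157. In the dDG inputs it was -1.13 with overlap, at 0.593 and 0.424 CPM in cKO and 0.449, 0.848 and 2.02 CPM in WT. In the IP it was 0.41. *Htr7* was lower in both cKO IPs, with -0.74 and an FDR of 0.485, and its changes in the inputs were 0.15 and 0.52.

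*Htr1a* differed between genotypes by 0.145 in the IP (interval -0.18 to 0.47), -0.05 in the vDG input (interval -0.34 to 0.23) and -0.19 in the dDG input (interval -0.70 to 0.32). Libraries that do not overlap were common in these small groups: 30.8% of all genes tested in the IP, 32.5% in the vDG input and 29.4% in the dDG input, against 3 of 10, 2 of 10 and 1 of 9 receptors.

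Several marker sums differed between genotypes without overlap. In the vDG IPs interneuron markers summed to 117 to 132 CPM in cKO against 167 to 193 CPM in WT, and granule cell markers to 2029 to 2108 CPM against 1749 to 1868 CPM. *Gad2*, the GABA-synthesizing enzyme, was the 1 interneuron marker called there (-0.91, FDR = 0.0618), where 0.420% of all genes were called. In the vDG inputs interneuron markers summed to 384 to 393 CPM in cKO against 451 to 524 CPM in WT, endothelial and mural markers to 6.96 to 8.34 CPM against 9.16 to 10.9 CPM, and astrocyte markers to 294 to 331 CPM against 404 to 505 CPM. Of the 5 astrocyte markers 3 fell in that comparison, where 2.44% of all genes were called. In the same inputs the choroid plexus marker *Ttr* was higher in cKO (1.11, FDR = 0.0372) and the granule cell marker *Dsp* lower (-0.94, FDR = 0.0156).

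In the dDG inputs granule cell markers summed to 2497 to 2502 CPM in cKO against 2362 to 2464 CPM in WT, and mossy cell markers to 64.4 to 65.8 CPM against 52.3 to 60.7 CPM. Astrocyte markers summed to 317 to 426 CPM in cKO against 443 to 465 CPM in WT, oligodendrocyte markers to 387 to 390.2 CPM against 391 to 417 CPM, microglia markers to 21.7 to 22.1 CPM against 24.1 to 42.9 CPM, and choroid plexus markers to 25.6 to 31.7 CPM against 41.4 to 164 CPM. No marker of these lists was called there. The part of these markers in the genotype values of *Htr4*, *Htr2c*, *Htr5a* and *Htr7* was not tested.

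Of 21 effectors and partners 3 were lower in the cKO vDG input, where 2.44% of all genes were called, 368 of those 385 genes lower: *Mpdz*, a scaffold that binds the 5-HT2C receptor, with -0.77, *Plcb1*, a phospholipase C downstream of Gq, with -0.61, and *Adcy2*, an adenylyl cyclase, with -0.61. *Maob* was lower there too, with -0.67.

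Whether the regional and fraction differences depend on genotype was tested as an interaction. edgeR called 0 of 16306 genes for genotype by region and 0 of 16093 for genotype by fraction. At an unadjusted p under 0.05 it gave 2010 and 497 genes, and DESeq2 called 246 and 0, with 0 receptors among any of these. For *Htr1a* the ventral-to-dorsal fold change differed between genotypes by 0.13 on the log2 scale, with an interval from -0.51 to 0.77. For *Htr4* it differed by 0.09, with an interval from -0.34 to 0.52. By fraction *Htr7* had -0.88, with an unadjusted p of 0.0641.

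**Figure D4:**
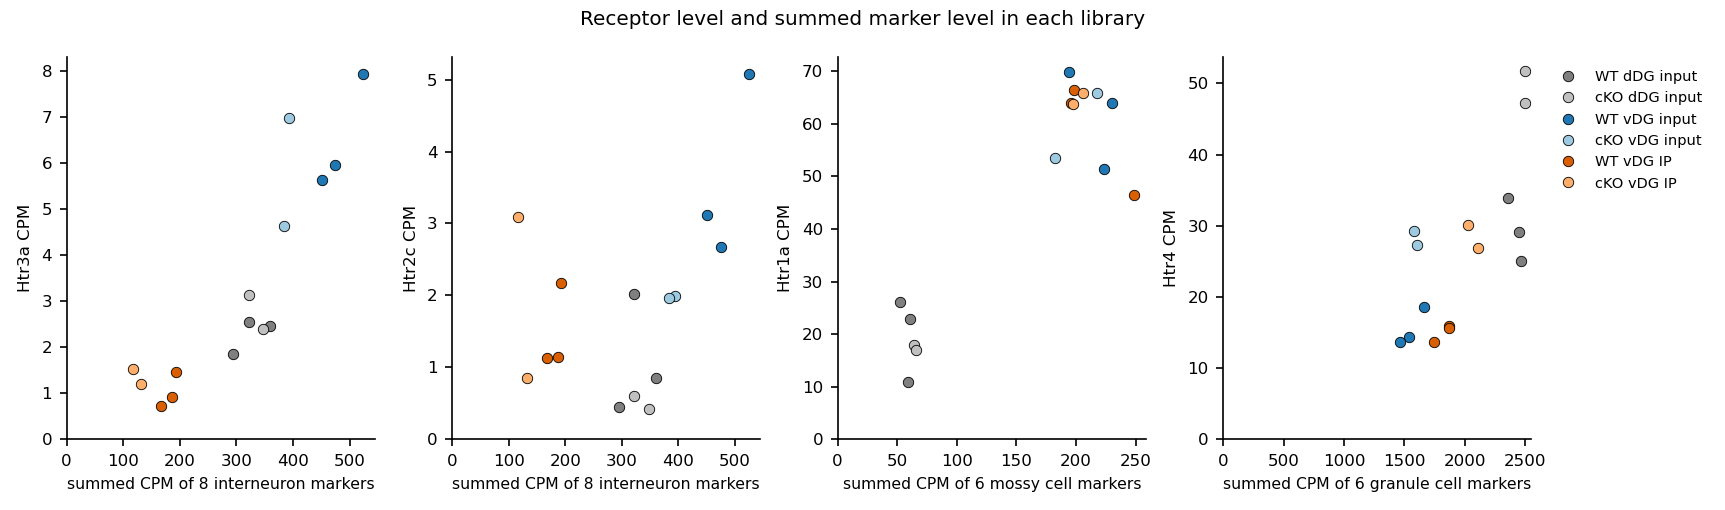
Each point is 1 of the 15 libraries; the x axes give summed CPM of fixed marker lists and the y axes CPM of *Htr3a*, *Htr2c*, *Htr1a* and *Htr4*. *Htr3a* is lowest in the IPs, where interneuron markers sum to 117 to 193 CPM, and highest in the vDG inputs, where they sum to 384 to 524 CPM.

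The genes whose levels ran most like each receptor over the 15 libraries were found by Pearson correlation of log2 CPM among 13311 genes with a mean of at least 1 CPM. These correlations describe libraries that share regions, fractions and genotypes. *Htr1a* ran closest with *Tox3* (r = 0.976), *Pea15a* (r = 0.972) and *Cplx1* (r = 0.967), and *Htr3a* with *Sst* (r = 0.963), *Rab3b* (r = 0.953) and *Tox2* (r = 0.945). *Htr4* ran closest with *Adamts17* (r = 0.932), *Tsga10* and *Rb1* (both r = 0.922). *Htr7* ran with *Trim36* (r = 0.921), *Htr2a* with *Camk1g* (r = 0.927), *Htr5a* with *Pofut2* (r = 0.925), *Htr2c* with *Ppargc1a* (r = 0.882) and *Htr6* with *Plp2* (r = 0.828). Among the receptors, *Htr1a* ran with *Htr2a* and *Htr2c* (both r = 0.72) and with *Htr7* (r = 0.70). *Htr4* ran against *Htr2a* (r = -0.66), *Htr1a* (r = -0.65), *Htr2c* (r = -0.58) and *Htr7* (r = -0.54), and r between *Htr3a* and *Htr4* was 0.013.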

How the data were processed

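Gene counts per library were deposited by the authors, who amplified RNA with the NuGEN Ovation kit, checked reads with FastQC 0.11.4, trimmed them with Trim Galore, aligned them to mm10 with STAR 2.4.2a, removed duplicates with SAMtools 0.1.19-444 and counted reads per gene with HTSeq in union mode with default settings. The authors' 5 comparison tables hold log2 fold changes and p-values made with DESeq2 1.4.5 and 25 columns of normalized counts, and none of these was used. Reads in no feature took 11.3 to 18.7% of each library, those in more than 1 gene 2.50 to 8.60% and those not aligned uniquely 9.28 to 13.4%. They were left out of library totals.

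The 15 libraries were grouped by their labels, and the receptor genes and gene lists were chosen with earlier results of these data known. The study's methods call the pools biological replicates, and p-values measure the spread between pools. Each comparison was fitted on its own libraries across all genes with edgeR 4.0.16 (R 4.3.3, TMM scaling, quasi-likelihood test, Benjamini-Hochberg adjustment), with an FDR threshold of 0.05, or 0.1 for genotype in the vDG IP as in the study. Genes with few counts were filtered by filterByExpr. Intervals are nominally 95%, as 1.96 SE on either side, and cover the spread between pools. With so few pools they are narrower than 95% intervals of the quasi-likelihood test would be. A gene counted as enriched in the IP when it passed the FDR threshold with a fold of 1.25 or more. RPKM used merged exon lengths of GENCODE M21 on GRCm38, the authors' build. Alternatives were DESeq2 1.42.0, its size factors, library totals alone, no count filter or at least 10 counts in every library, a fit of both genotypes, a fit of all libraries, a replicate block and each library left out. From each list, up to 3 called genes with the largest change were named. No molecular identifiers are named in the methods. Figures were drawn with matplotlib 3.10.9.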

Additional observations from a re-analysis of the deposited data

How the results depend on the processing

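Of the 133 recomputed values, nearly all were counts of called receptors and the rest counted agreeing ranks of the receptors' group means. Of these values 115 stayed within 1.5 times the reported one, 13 fell below that and 5 rose above it. The 115 include every setting of both interactions, where no receptor was called under any setting. The count of called receptors was 1 with DESeq2 for IP against input in cKO. For genotype in the vDG IP it was 0 at an FDR of 0.05. For genotype in the dDG input it was 1 at an FDR of 0.1, with DESeq2 or without a count filter. When libraries were left out in turn, the count ranged from 4 to 6 (vDG against dDG in WT), 3 to 6 (in cKO), 1 to 2 (IP against input in WT), 1 to 2 (in cKO) and 0 to 1 (genotype in the vDG IP, vDG input and dDG input). With 1 library left in an arm, that library was assumed to vary like the others. The cause of these changes was not tested. Inputs came from homogenates taken before the IP, but the labels do not say that a number marks a shared homogenate. Deviations of same-numbered IP and input libraries correlated at 0.464, -0.164 and -0.329 in WT, where the numbers therefore gave no common pairing, and at 0.44 in cKO, where 2 pairs cannot settle it. Over all comparisons the correlations ran from -0.329 to 0.464. For the cKO dDG inputs the numbers are those of the titles (1 and 2), the file names give 2 and 3, and the block and this check rest on the titles there. With a replicate block, the number of receptors called was the same in all 9 tests, for instance 6 for vDG against dDG in WT and 5 in cKO. Over all genes, the block called 137 against 5 genes for genotype in the dDG input and 11 against 0 for genotype by region. Between genotypes the block joins pools of different mice, and same-numbered dDG inputs correlated at -0.094 and -0.167. The block therefore rests on no shared tissue there.

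With libraries left out in turn, calls over all genes ranged from 0 to 184 for genotype in the vDG IP, 6 to 638 in the vDG input, 0 to 130 in the dDG input and 0 to 48 for genotype by region. They ranged from 1428 to 3084 for vDG against dDG in cKO and from 2252 to 4344 for IP against input in cKO, so the shares of all genes printed beside the receptors move with single libraries. DESeq2 called 374 against 60 genes for genotype in the vDG IP, 620 against 385 in the vDG input, and 182 against 5 in the dDG input. Without a count filter these were 379, 660 and 378, and the interactions by region and by fraction gave 362 and 12 against 0. All 15 libraries in one fit gave 470, 140 and 0 for genotype and 1360 against 2642 for vDG against dDG in cKO. Both genotypes together gave 6451 genes for IP against input, against 3582 in WT and 4167 in cKO. An FDR of 0.1 gave 687 in the vDG input, 17 in the dDG input and 12 for genotype by region, and an FDR of 0.05 gave 0 in the vDG IP. Library totals alone called 115 genes for genotype in the vDG IP. They shifted the median of all genes by -0.13 (WT) and -0.17 (cKO) for IP against input, and DESeq2 shifted it by -0.11 in cKO. Library totals also moved the split of called genes from 1160 higher and 2422 lower to 487 and 3022 in WT, from 1790 and 2377 to 751 and 3230 in cKO, and for vDG against dDG in cKO from 1328 and 1314 to 1778 and 943. DESeq2 gave 83 higher and 99 lower against 1 and 4 for genotype in the dDG input.

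Among single receptors 73 of the recomputed log2 fold changes turned sign, none of them of a called receptor. Library totals alone gave *Htr5a* 0.0048 for vDG against dDG in cKO and *Htr1a* -0.0999 for IP against input in cKO. Both genotypes in one fit gave *Htr5a* 0.0044 for the former and *Htr1a* -0.0187 and *Htr5a* 0.0126 for the latter comparison. All 15 libraries in one fit gave *Htr2a* 0.0137 for IP against input in WT, *Htr4* 0.0137 in cKO and *Htr5a* 0.0026 for genotype in the dDG input. The block gave *Htr1f* -0.199 for genotype in the vDG input, *Htr1a* 0.029 and *Htr5a* 0.162 in the dDG input, and *Htr2a* 0.0223 for genotype by fraction. *Htr5a* in the dDG input was 0.0096 with DESeq2 and 0.0078 with its size factors, and *Htr2a* for genotype by fraction was 0.00087 without a filter. With libraries left out in turn, the following ranges crossed 0 on the log2 scale. They were, for vDG against dDG in WT *Htr5a* -0.041 to 0.22. For vDG against dDG in cKO *Htr1f* -0.075 to 1.62, *Htr2a* -0.042 to 0.74, *Htr5a* -0.26 to 0.14. For IP against input in WT *Htr1a* -0.22 to 0.031, *Htr2a* -0.21 to 0.15, *Htr4* -0.17 to 0.043, *Htr5a* -0.0043 to 0.26. For IP against input in cKO *Htr1a* -0.067 to 0.22, *Htr1f* -1.53 to 0.34, *Htr2a* -0.41 to 0.36, *Htr2c* -1.23 to 0.59, *Htr4* -0.083 to 0.0497, *Htr6* -0.96 to 0.999. For cKO against WT in the vDG IP *Htr1a* -0.00077 to 0.23, *Htr1f* -1.01 to 0.45, *Htr2c* -0.80 to 1.07, *Htr5b* -6.76 to 0.93, *Htr6* -1.39 to 0.61. For cKO against WT in the vDG input *Htr1a* -0.20 to 0.078, *Htr1f* -0.92 to 0.61, *Htr3a* -0.48 to 0.082, *Htr5b* -1.95 to 0.40, *Htr6* -0.17 to 0.29. For cKO against WT in the dDG input *Htr1a* -0.48 to 0.055, *Htr1f* -0.39 to 0.84, *Htr2a* -0.26 to 0.36, *Htr5a* -0.19 to 0.18. For genotype by region *Htr1a* -0.11 to 0.42, *Htr1f* -1.26 to 0.43, *Htr2c* -0.57 to 0.63, *Htr4* -0.025 to 0.26, *Htr5a* -0.30 to 0.089, *Htr5b* -2.32 to 0.0022. For genotype by fraction *Htr1f* -1.03 to 0.85, *Htr2a* -0.34 to 0.41, *Htr4* -0.043 to 0.17, *Htr5b* -6.49 to 1.92, *Htr6* -1.44 to 0.54.

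Counts under 60 per library limit *Htr1f*, *Htr5b* and *Htr6*, and groups of 2 pools limit each cKO value. Low counts also limit receptors that were called. *Htr2c* had 10 to 61 counts in the WT dDG inputs, 9 to 15 in the cKO dDG inputs and 28 to 55 in the WT IPs. *Htr7* had 19 to 35 counts in the WT dDG inputs, 38 to 42 in the cKO dDG inputs and 27 to 52 in the cKO IPs. *Htr3a* had 18 to 37 counts in the WT IPs and 28 to 32 in the cKO IPs.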
